A study of Homo sapiens with 6 samples.

Results

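The nuclear oxidative phosphorylation genes examined here are the 92 protein-coding genes outside mitochondrial DNA, of 58735 genes in the table, whose symbols name a subunit of respiratory complexes I to IV, ATP synthase (complex V) or cytochrome c. The rule uses symbols alone, but it was chosen with earlier results of these data known. Of the members, 37 belong to complex I, 4 to complex II, 10 to complex III, 19 to complex IV, 21 to complex V and 1 is cytochrome c, CYCS. The rule also takes in COX7A2L, a supercomplex factor, ATP5IF1, the inhibitor of ATP synthase, ATP5S, a coupling factor, and 2 readthrough genes. They were measured by RNA sequencing in NCI-N87, a gastric carcinoma line that carries an amplified ERBB2 gene, in 3 shNC libraries and 3 shScamp1 libraries. Both groups had been infected with lentivirus and kept as stable populations under puromycin at 2 μg/ml. The shNC cells carried the empty pSIH-H1-puro vector and the shScamp1 cells carried 1 shRNA against SCAMP1, a secretory carrier membrane protein with a role in endocytosis. The labels call the libraries biological replicates, but nothing states that they came from separate infections, so the p-values measure the spread between these libraries, which may be technical. The question was whether the knockdown altered the expression of these genes.

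Complexes I and II take electrons from NADH and succinate, complex III passes them through cytochrome c to complex IV, which reduces oxygen, and complex V makes ATP from the resulting proton gradient. Complex II is encoded wholly in the nucleus, whereas the other complexes combine nuclear subunits with a few that are encoded in mitochondrial DNA. Many of the nuclear genes are known targets of NRF1, of the ETS factor GABPA and of Sp1.

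Promoters are shown for 5 members. NDUFB10 and NDUFV1 are the complex I genes that passed the test with all 6 libraries, and CYCS had the second smallest adjusted p among the members once 1 library was left out. COX5B and COX6A1 each hold the 3 motifs searched for, yet had the lowest and the highest fold change among the 3 members that do, once shScamp1 replicate 2 was left out. Each run covers 250 bases before to 50 bases after the RefSeq start (GRCh38.p14), written 5′ to 3′ on the gene's strand. NDUFB10 was read from chr16:1959288-1959587 (plus), NDUFV1 from chr11:67606686-67606985 (plus), CYCS from chr7:25125211-25125510 (minus), COX5B from chr2:97645812-97646111 (plus) and COX6A1 from chr12:120437863-120438162 (plus). Capitals mark exact matches on either strand to NRF1 (GCGCATGC), ETS (CCGGAAG) or Sp1 (GGGCGG).
NDUFB10: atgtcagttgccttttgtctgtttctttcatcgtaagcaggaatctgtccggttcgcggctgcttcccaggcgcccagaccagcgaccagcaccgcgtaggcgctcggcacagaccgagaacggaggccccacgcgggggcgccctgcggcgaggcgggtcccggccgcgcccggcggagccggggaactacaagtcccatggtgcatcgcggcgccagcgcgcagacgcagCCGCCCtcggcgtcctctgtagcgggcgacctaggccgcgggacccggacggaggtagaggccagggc
NDUFV1: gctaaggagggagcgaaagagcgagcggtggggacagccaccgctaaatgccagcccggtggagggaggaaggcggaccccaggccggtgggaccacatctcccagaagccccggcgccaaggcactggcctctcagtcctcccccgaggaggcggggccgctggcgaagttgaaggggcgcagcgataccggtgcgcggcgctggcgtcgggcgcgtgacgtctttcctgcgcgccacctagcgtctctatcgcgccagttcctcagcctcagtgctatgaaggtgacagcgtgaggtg
CYCS: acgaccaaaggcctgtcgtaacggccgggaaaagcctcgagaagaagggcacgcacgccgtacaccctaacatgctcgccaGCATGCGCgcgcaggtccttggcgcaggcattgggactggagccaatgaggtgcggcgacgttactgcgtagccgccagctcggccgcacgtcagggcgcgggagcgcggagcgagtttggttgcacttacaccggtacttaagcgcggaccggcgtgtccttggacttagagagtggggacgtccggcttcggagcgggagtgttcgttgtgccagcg
COX5B: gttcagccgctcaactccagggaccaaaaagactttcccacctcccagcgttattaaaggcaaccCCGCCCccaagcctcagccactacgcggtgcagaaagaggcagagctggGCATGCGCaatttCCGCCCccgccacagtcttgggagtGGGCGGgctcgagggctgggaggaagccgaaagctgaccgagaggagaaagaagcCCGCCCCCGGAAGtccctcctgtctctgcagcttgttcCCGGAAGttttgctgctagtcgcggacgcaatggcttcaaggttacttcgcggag
COX6A1: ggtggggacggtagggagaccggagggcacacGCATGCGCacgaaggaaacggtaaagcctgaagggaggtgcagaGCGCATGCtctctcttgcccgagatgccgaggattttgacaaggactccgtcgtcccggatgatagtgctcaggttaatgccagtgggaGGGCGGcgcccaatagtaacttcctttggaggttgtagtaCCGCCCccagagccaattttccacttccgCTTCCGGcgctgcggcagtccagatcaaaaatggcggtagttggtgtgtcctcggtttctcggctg
NDUFV1 had no match in this window, NDUFB10 had a single Sp1 match that begins 18 bases before the start, and CYCS had a single NRF1 match that begins 169 bases before it. The whole NDUFV1 window lies inside the annotated gene (chr11:67605653-67612554), so the sequence before the annotated gene start was not searched. COX5B held 7 matches, among them 2 ETS matches that begin 37 and 5 bases before the start, and COX6A1 held 5, of which 2 were to NRF1. No matches overlapped in the printed windows.

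A RefSeq promoter was found for 72 of the 92 members. NRF1 letters stood in 14 of them (19.4%), against 3.05% of the 35116 windows of the same length over all genes, members included. ETS letters stood in 20 (27.8%, against 10.3% of all windows) and Sp1 letters in 43 (59.7%, against 45.0%). Such matches describe the sequence and do not show that a factor binds there.

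SCAMP1 itself was measured at 12.6, 12.1 and 11.5 FPKM (fragments per kilobase of gene, scaled to a size set for each library) in the shNC libraries and at 1.70, 1.37 and 1.99 FPKM in the shScamp1 libraries. Its log2 fold change was -2.78 (SE 0.14, adjusted p = 0.000248, limma with Benjamini-Hochberg adjustment over 15556 genes), so the labels fit the targeted gene. Reads assigned to genes, recovered from the FPKM values, ranged from 15064905 to 15988700 in the shNC libraries and from 14311769 to 14667628 in the shScamp1 libraries. The sizes behind the FPKM scaling lay above these read totals in every shNC library and below them in every shScamp1 library. All 7 epithelial markers were above 0.5 FPKM, summing to between 5430 and 5711 FPKM in shNC and between 9071 and 10024 FPKM in shScamp1. Of 9 markers of immune, fibroblast and endothelial cells, COL1A2 and DCN were at 0 throughout and the highest value was 2.21 FPKM. shScamp1 replicate 2 stood apart: mitochondrial DNA gave 9.21% of its reads, against 6.09% to 6.78% in the other libraries, and genes with short coding sequences were low in it. The main comparisons are therefore given both with all 6 libraries and without that library.

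The members lay lower in shScamp1 than in shNC cells, by an amount that 1 library set in large part. Their summed level was 4167, 4036 and 4258 FPKM in the 3 shNC libraries and 3949, 2287 and 3549 FPKM in shScamp1 replicates 1, 2 and 3. All 3 shScamp1 sums lay below the shNC range, replicate 2 by far the most. The members took 0.954%, 0.937% and 0.956% of gene reads in shNC and 0.856%, 0.518% and 0.783% in shScamp1. Bulk RNA cannot tell fewer cells that express a gene from less RNA per cell.

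Of the 92 members, 83 had a mean of at least 0.5 FPKM and were tested on the log2(FPKM + 0.1) scale, on which the change of low genes is understated. Their median log2 fold change was -0.37, against -0.02 over all 15556 genes tested, and 77 of the 83 (92.8%) were below 0, against 52.4% of all genes. At an adjusted p under 0.05 (limma, Benjamini-Hochberg over all genes tested), 2 members were lower, 2.41% against a background of 5.17%, and none was higher, against 8.82%. Both belong to complex I. At that p together with an absolute log2 fold change above 1, which 3.16% of all genes passed, no member was differentially expressed by limma, and limma voom on the recovered reads also gave 0. At an unadjusted p under 0.05 (limma), 15 members were lower (18.1%, against 14.7% of all genes) and 0 higher. Over all 15556 genes, 4782 passed in either direction, of which 2284 were lower. Limma voom called 5 members lower, NDUFB10, NDUFB11, NDUFV1, ATP5MC3 and CYCS (6.02%, against 7.33% of all genes), and 0 higher, against 10.4%. The shScamp1 values lay wholly below the shNC values for 39 members (47.0%), against 21.0% of all genes. They lay wholly above them for no member, against 3174 of the 15556 genes.

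Without shScamp1 replicate 2 the fold changes were smaller and their errors smaller still. The median standard error over the members went from 0.20 to 0.07, and the median log2 fold change from -0.37 to -0.12. Without that library 20 of the 83 members (24.1%) were lower by limma, against 13.2% of all genes, and 1 was higher, against 14.7%. The 20 were 9.77% to 25.4% below the shNC mean in FPKM. For all 20 both remaining shScamp1 libraries lay below every shNC library, which a call in these same libraries makes likely, so it adds no separate evidence. By that count of non-overlapping values, 40 members were lower (48.2%), against 28.6% of all genes. On the other side, 2 of the 83 members, NDUFS4 and COX6B2, were wholly higher, against 4346 of the 15556 genes. Of the 20, 7 belonged to complex I, 0 to complex II, 5 to complex III, 4 to complex IV and 3 to complex V, and the last was CYCS.

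**Figure D1:**
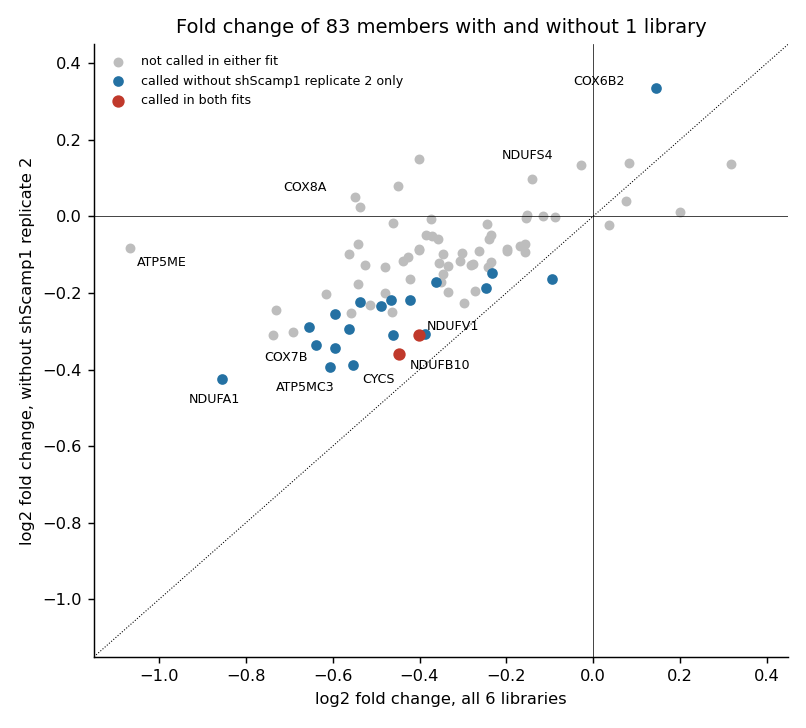
Log2 fold change (shScamp1 against shNC, log2(FPKM + 0.1) scale) of each of the 83 tested members with all 6 libraries (x axis) and without shScamp1 replicate 2 (y axis). Points are members, colours give the calls at an adjusted p under 0.05, and the dotted line marks equal values; most points lie above that line, closer to 0 on the y axis, and COX6B2 is the 1 member called higher.

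The libraries differed by complex in how far they lay from the shNC mean. In shScamp1 replicate 1 the median over the 83 members was -0.06 on the log2 scale, with 30 members above the shNC mean. In replicate 3 it was -0.19, with 6 above. Replicate 2 had a median of -0.82 with 5 above, against 7474 of all 15556 genes tested. It was the lowest of the 6 libraries for 76 members (91.6%, against 32.4% of all genes). In that library 33 members were under 50% of their shNC mean, and none was in the other 2 shScamp1 libraries. This count, and those above the shNC mean in replicates 1 and 3, were not made over all genes. By complex, the median in replicate 2 was -0.69 for complex I, -0.46 for complex II, -0.71 for complex III, -1.09 for complex IV, -1.03 for complex V and -0.88 for CYCS. The median longest coding sequence of the tested genes was 516, 673.5, 394.5, 261 and 426 bases in complexes I to V. In replicate 3 the complex medians ranged only from -0.21 (complexes I and III) to -0.16 (complex II), with CYCS at -0.45.

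**Figure D2:**
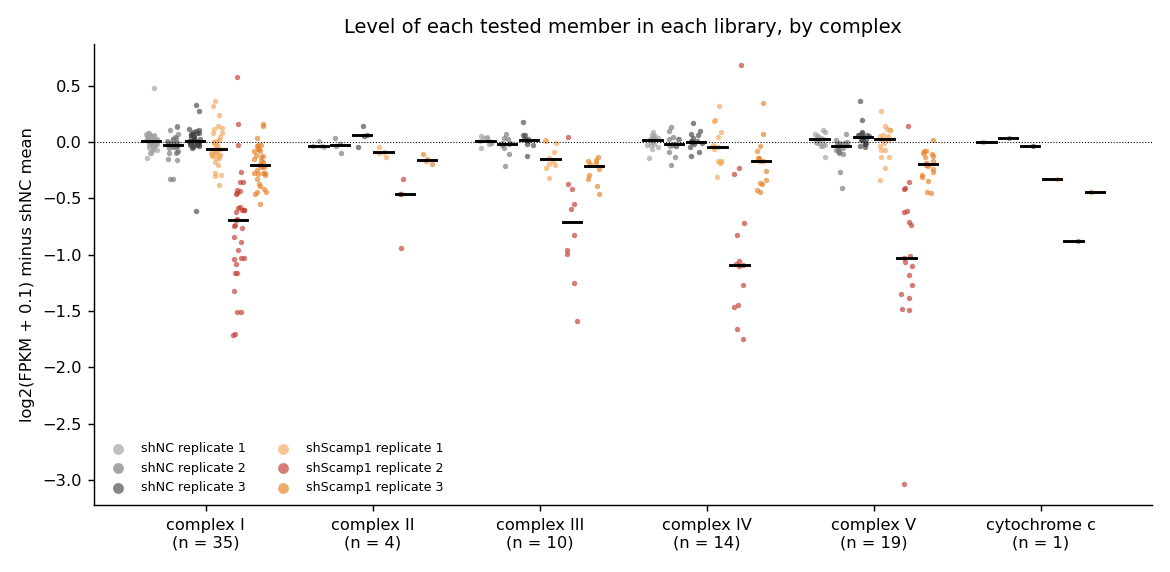
Log2(FPKM + 0.1) minus the mean of the 3 shNC libraries (y axis) for every tested member, grouped by complex (x axis, number of members in brackets). Each point is 1 member in 1 library, colours mark the libraries and black bars the median; the median of shScamp1 replicate 2 lies below those of the other libraries in every complex, with values from -1.09 to -0.46.

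Complex I, the NADH dehydrogenase, holds the 2 members that passed with all 6 libraries. NDUFB10 (ENSG00000140990, chr16:1959508-1961975, plus strand), an accessory subunit of the membrane arm, was at 80.7, 84.0 and 81.9 FPKM in shNC and at 67.8, 53.5 and 60.4 FPKM in shScamp1. Every shScamp1 library was below every shNC library. Its log2 fold change was -0.45 (SE 0.10, adjusted p = 0.0311, limma), and -0.36 (SE 0.06, adjusted p = 0.00780) without shScamp1 replicate 2. NDUFV1 (ENSG00000167792, chr11:67605653-67612554, plus strand), the core subunit that binds NADH and FMN, was at 34.1, 34.5 and 38.2 FPKM in shNC and at 29.1, 23.7 and 28.2 FPKM in shScamp1. The groups did not overlap here either, and replicate 2 was the lowest. NDUFV1 had a log2 fold change of -0.40 (SE 0.10, adjusted p = 0.0456, limma), and -0.31 (SE 0.06, adjusted p = 0.0148) without that library. Both calls depended on single libraries: NDUFB10 lost its call without any 1 shNC library or without shScamp1 replicate 3 (adjusted p from 0.0983 to 0.126), and NDUFV1 without any 1 library but shScamp1 replicate 2 (0.0532 to 0.161).

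Of the 35 complex I genes tested, 32 had a fold change below 0, with a median of -0.35, and 28 without shScamp1 replicate 2, with a median of -0.12. NDUFA1, a short accessory subunit, had the lowest log2 fold change of all tested members without that library. It was at 83.4, 78.3 and 87.3 FPKM in shNC and at 67.3, 25.2 and 56.6 FPKM in shScamp1, so that replicate 2 held 30.3% of the shNC mean. The NDUFA1 log2 fold change of -0.86 (SE 0.35) had an adjusted p of 0.161 with all libraries, and the -0.43 (SE 0.09) left without replicate 2 had an adjusted p of 0.0179 (limma). NDUFB11, NDUFB6, NDUFA6 and NDUFB4, all accessory subunits, were the other complex I genes lower without that library, at -0.31, -0.22, -0.22 and -0.17. The abundant NDUFS5 was at 316, 289 and 324 FPKM in shNC and at 297, 185 and 269 FPKM in shScamp1. Its groups overlapped, and neither fit called it (log2 fold change -0.33, adjusted p = 0.264, and -0.13, adjusted p = 0.214, without replicate 2). NDUFB7, the next most abundant complex I gene, was at 124, 115 and 131 FPKM in shNC and at 119.9, 81.2 and 117 FPKM in shScamp1, again with overlap (log2 fold change -0.24, adjusted p = 0.360, and -0.06, adjusted p = 0.515, without replicate 2). NDUFS4, an accessory subunit needed for a stable complex, had the fold change nearest 0 of its complex, -0.03 (95% interval -0.37 to 0.32). It was at 23.5, 25.3 and 24.7 FPKM in shNC and at 26.7, 19.1 and 27.1 FPKM in shScamp1, where replicates 1 and 3 lay above all shNC libraries and replicate 2 below them. Without replicate 2 the log2 fold change of NDUFS4 was 0.13 (95% interval 0.03 to 0.24, adjusted p = 0.0695, limma), which did not pass.

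Complex II, succinate dehydrogenase, had no called gene in either limma fit, none at an unadjusted p under 0.05 with all libraries, and none by limma voom. SDHA, the flavoprotein, was at 19.6, 19.9 and 20.9 FPKM in shNC and at 19.6, 16.1 and 18.7 FPKM in shScamp1. SDHB, the iron-sulphur subunit, was at 18.8, 18.0 and 21.4 FPKM in shNC and at 18.2, 14.0 and 17.4 FPKM in shScamp1. SDHB overlapped between the groups, by the first shScamp1 library, and SDHA came just short of it. The membrane anchors SDHC and SDHD were lower in all shScamp1 libraries: SDHC at 7.85, 8.02 and 7.57 against 7.31, 5.64 and 6.94 FPKM. SDHD was at 13.8, 13.7 and 14.7 FPKM in shNC and at 12.8, 7.28 and 12.3 FPKM in shScamp1. The 4 log2 fold changes ran from -0.42 (SDHD) to -0.16 (SDHA) with all libraries (adjusted p from 0.189 to 0.289, limma). Without shScamp1 replicate 2 they ran from -0.16 (SDHD, 95% interval -0.29 to -0.04, adjusted p = 0.0639) to -0.07 (SDHA, 95% interval -0.18 to 0.04).

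Complex III, the cytochrome bc1 complex, had 10 genes tested, all with a fold change below 0 in both fits, a median of -0.36 with all libraries and -0.18 without shScamp1 replicate 2. None was called with all libraries by limma or limma voom, and 3 had an unadjusted p under 0.05. The core proteins UQCRC2 and UQCRC1 had closely spaced shNC values. UQCRC2 was at 38.9, 38.4 and 39.0 FPKM in shNC and at 33.9, 30.0 and 34.2 FPKM in shScamp1. Its log2 fold change was -0.25 (SE 0.07, adjusted p = 0.0730, limma) with all libraries and -0.19 (SE 0.03, adjusted p = 0.00928) without replicate 2. UQCRC1 was at 38.5, 38.3 and 39.1 FPKM in shNC and at 34.4, 39.8 and 34.5 FPKM in shScamp1, so replicate 2 was the highest of all 6 libraries. This was opposite to the rest of the complex, and the fold change of -0.10 (adjusted p = 0.444) became -0.16 (SE 0.03, adjusted p = 0.0145) without replicate 2. UQCRH, the hinge protein, was at 177, 172 and 169 FPKM in shNC and at 156, 86.4 and 138 FPKM in shScamp1 (log2 fold change -0.49, adjusted p = 0.184, and -0.23, adjusted p = 0.0368, without replicate 2). UQCRQ and UQCRHL were also called lower without that library, at -0.33 and -0.31. UQCRHL is a near copy of UQCRH, at 3.20 to 4.24 FPKM outside replicate 2, and reads of the more abundant gene may have been counted there. CYC1, cytochrome c1, was at 164, 159 and 173 FPKM in shNC and at 156, 109 and 147 FPKM in shScamp1. The groups of CYC1 did not overlap, yet it passed in neither fit (log2 fold change -0.28, adjusted p = 0.231, and -0.13, adjusted p = 0.109, without replicate 2).

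CYCS (ENSG00000172115, chr7:25120091-25125361, minus strand), the mobile electron carrier that also triggers apoptosome assembly when released, was at 77.3, 79.0 and 75.1 FPKM in shNC and at 61.3, 41.8 and 56.6 FPKM in shScamp1. All 3 shScamp1 libraries were clear of the shNC range. Its log2 fold change of -0.55 (SE 0.15) had an adjusted p of 0.0542 in limma and 0.0261 in limma voom. Without shScamp1 replicate 2 the fold change was -0.39 (SE 0.05, adjusted p = 0.00362), a level 23.6% below the shNC mean.

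Complex IV, cytochrome c oxidase, had the lowest median of the complexes with all libraries, -0.49, but -0.11 without shScamp1 replicate 2. It also had the shortest median coding sequence of the complexes, 261 bases, and its median was -0.28 in the coding-length fit described further on. With all libraries none of its 14 tested genes was called by limma or limma voom, and 3 had an unadjusted p under 0.05. COX7B was at 38.0, 36.9 and 34.1 FPKM in shNC and at 29.2, 16.9 and 27.9 FPKM in shScamp1, with no overlap (log2 fold change -0.59, adjusted p = 0.114, and -0.34, SE 0.06, adjusted p = 0.00912, without replicate 2, limma). COX4I1, the main form of the largest nuclear subunit, was at 62.3, 64.6 and 62.9 FPKM in shNC and at 55.7, 35.6 and 53.0 FPKM in shScamp1. It had a log2 fold change of -0.42 (adjusted p = 0.156), and of -0.22 (SE 0.04, adjusted p = 0.0106) without that library. COX5B, whose promoter is printed above, was at 98.6, 103 and 99.6 FPKM in shNC and at 89.6, 46.8 and 74.9 FPKM in shScamp1 (-0.56, adjusted p = 0.156, and -0.29, adjusted p = 0.0426, without replicate 2). NDUFA4, once assigned to complex I, was at 44.3, 45.1 and 49.3 FPKM in shNC and at 40.9, 19.1 and 36.5 FPKM in shScamp1 (-0.59, adjusted p = 0.208, and -0.25, adjusted p = 0.0467, without replicate 2).

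Other abundant complex IV genes were not called without that library, and in 2 of them the sign turned. COX7C was at 137, 125 and 136 FPKM in shNC and at 118, 47.8 and 97.7 FPKM in shScamp1, without overlap (-0.69, adjusted p = 0.204, and -0.30, adjusted p = 0.0579, without replicate 2). COX6C was at 56.3, 54.3 and 55.4 FPKM in shNC and at 53.7, 20.3 and 43.1 FPKM in shScamp1, again without overlap (-0.62, adjusted p = 0.272, and -0.20, adjusted p = 0.167, without replicate 2). Both kept a fold change below 0, and COX7C was called lower in the coding-length fit (-0.40, adjusted p = 0.0477, limma). COX8A was at 147, 124 and 161 FPKM in shNC and at 163, 42.6 and 135 FPKM in shScamp1. Replicates 1 and 3 lay within or above the shNC range and replicate 2 held 29.6% of the shNC mean. The log2 fold change of COX8A was -0.55 (SE 0.49) with all libraries and turned to 0.05 (95% interval -0.27 to 0.38) without replicate 2. COX6A1 was at 44.9, 39.4 and 45.3 FPKM in shNC and at 45.8, 13.6 and 42.0 FPKM in shScamp1. Like COX8A it changed sign, from -0.54 to 0.02 (95% interval -0.17 to 0.21), and 2 of its pseudogenes held reads equal to 8.98% of its own. COX7A2 was at 69.1, 65.7 and 67.3 FPKM in shNC and at 69.6, 32.3 and 60.9 FPKM in shScamp1 (-0.39, adjusted p = 0.390, and -0.05, adjusted p = 0.604, without replicate 2). COX6B1 was at 132, 130.5 and 140.0 FPKM in shNC and at 128, 63.3 and 119 FPKM in shScamp1, without overlap but not called (-0.44, adjusted p = 0.312, and -0.12, adjusted p = 0.156, without replicate 2).

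Tissue-restricted isoforms of complex IV were scarce in these cells. COX6B2, the testis form, was the only member called higher, without shScamp1 replicate 2 and in the coding-length fit described further on, but not with all 6 libraries. It was at 3.75, 4.55 and 4.16 FPKM in shNC and at 5.19, 3.50 and 5.30 FPKM in shScamp1, with replicates 1 and 3 above every shNC library and replicate 2 below them all. Its log2 fold change was 0.14 (adjusted p = 0.613), and 0.33 (SE 0.09, adjusted p = 0.0460, limma) without that library, and 30.9% of its exon bases are shared with another annotated gene. COX7A1, the muscle form, was at 0.690, 0.656 and 0.579 FPKM in shNC and at 0.749, 1.09 and 0.679 FPKM in shScamp1 (log2 fold change 0.32, adjusted p = 0.416, and 0.14, adjusted p = 0.698, without replicate 2). COX4I2 and COX7B2 had 2 reads each over all 6 libraries and NDUFA4L2 had 14. COX6A2 and COX8C had no reads in any library, which allows up to 3 reads per library, the limit set by a count of 0 for counting error only. Each of the main forms COX4I1, COX6A1, COX7B, COX8A and NDUFA4 was above 10 FPKM in every library.

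**Figure D3:**
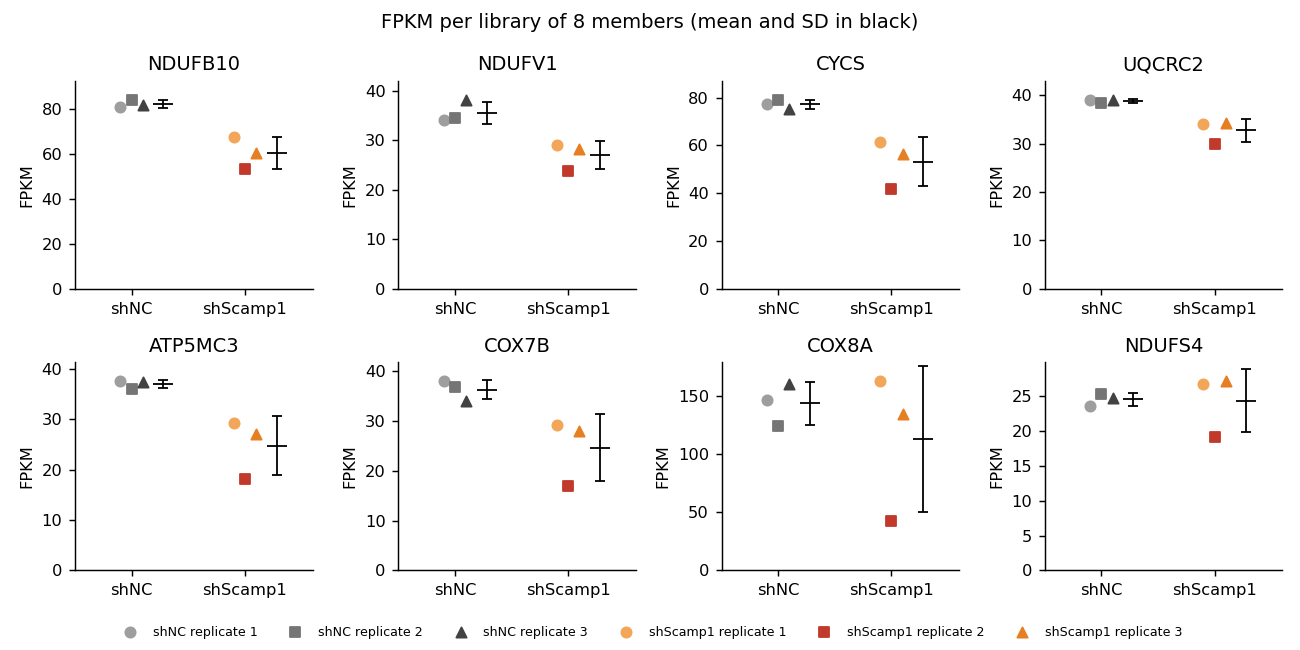
FPKM (y axis, from 0) in each library of 8 members chosen after their values were seen, with shNC and shScamp1 on the x axis; points are libraries, and black bars give the mean and SD of 3 libraries. NDUFB10, NDUFV1, CYCS, UQCRC2, ATP5MC3 and COX7B show 3 shScamp1 libraries below all shNC libraries, whereas for COX8A and NDUFS4 only shScamp1 replicate 2 lies below the shNC range.

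Complex V, the ATP synthase, had no called gene with all 6 libraries by limma, 1 by limma voom (ATP5MC3) and 2 at an unadjusted p under 0.05, where its 19 tested genes had a median of -0.37, and 3 called genes with a median of -0.09 without shScamp1 replicate 2. ATP5F1B, the catalytic beta subunit and the most abundant member of all, was at 331, 332 and 340.3 FPKM in shNC and at 306, 252 and 298 FPKM in shScamp1. The groups were apart, and the fold change was -0.23 (SE 0.10, adjusted p = 0.156, limma), or -0.15 (SE 0.03, adjusted p = 0.0254) without replicate 2. ATP5MC1, ATP5MC2 and ATP5MC3 encode the c-ring subunit, the same mature protein from 3 genes. ATP5MC3 was at 37.5, 36.1 and 37.4 FPKM in shNC and at 29.2, 18.1 and 27.1 FPKM in shScamp1. The log2 fold change of ATP5MC3, -0.61 (SE 0.18, adjusted p = 0.0742, limma), became -0.39 (SE 0.05, adjusted p = 0.00320) without replicate 2, the smallest adjusted p of any member there. ATP5MC1 was at 40.4, 37.8 and 43.0 FPKM in shNC and at 34.3, 15.4 and 31.8 FPKM in shScamp1 (-0.65, adjusted p = 0.197, and -0.29, adjusted p = 0.0268, without replicate 2). ATP5MC2 was at 36.7, 35.8 and 35.6 FPKM in shNC and at 36.6, 17.1 and 30.6 FPKM in shScamp1, where replicate 1 lay within the shNC range (-0.43, adjusted p = 0.328, and -0.11, adjusted p = 0.372, without replicate 2). Whether the 3 c-ring genes differed from each other was not tested.

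Several short complex V genes were far lower in shScamp1 replicate 2 than in the other shScamp1 libraries. ATP5MD, a small membrane subunit, was at 128, 119 and 129 FPKM in shNC and at 136, 58.2 and 114 FPKM in shScamp1 (log2 fold change -0.37, and -0.01 with a 95% interval of -0.21 to 0.20 without replicate 2). ATP5IF1, the inhibitor, was at 54.6, 53.6 and 58.6 FPKM in shNC and at 57.7, 19.8 and 48.4 FPKM in shScamp1 (-0.54, adjusted p = 0.382, and -0.07, adjusted p = 0.568, without replicate 2). ATP5ME had the lowest fold change of all members, -1.07 (SE 0.81, adjusted p = 0.414), which became -0.08 (SE 0.25) without that library. It was at 29.1, 21.2 and 36.3 FPKM in shNC and at 31.2, 3.34 and 22.8 FPKM in shScamp1, and 61.6% of its exon bases are shared with other annotated genes, MYL5 on the opposite strand foremost. ATP5S, a coupling factor, had the fold change nearest 0 of complex V, at 1.85, 1.64 and 1.65 FPKM in shNC and at 1.78, 1.90 and 1.74 FPKM in shScamp1 (log2 fold change 0.07, 95% interval -0.18 to 0.33, and 0.04, adjusted p = 0.816, without replicate 2).

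The 9 members under the filter on low values were NDUFA7, NDUFC2-KCTD14, COX4I2, COX6A2, COX7B2, COX8C, NDUFA4L2, ATP5MF-PTCD1 and ATP5MGL, of which 3 had no reads at all. The most reads were on NDUFA7, 60 over the 6 libraries. NDUFV2, a core complex I subunit, passed narrowly with 127 reads in all, while its pseudogene had 316 reads, so that its level is uncertain. Named pseudogenes of SDHA held 22.8% as many reads as SDHA, and those of UQCRFS1 4.63% as many as UQCRFS1. In all, 46 members had a named pseudogene in the table. In 36 members over 10% of the exon bases lie in another annotated gene, and whether counting used strand is not stated. Such genes include NDUFB8 (48.5%), NDUFB11 (44.9%) and NDUFA1 (44.5%).

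Short coding sequences were common among the members and moved with the level in shScamp1 replicate 2. The median longest coding sequence was 435 bases in the tested members and 1398 bases over all protein-coding genes tested. In 58 members (69.9%) it was under 600 bases, against 12.0% of the 11433 other protein-coding genes. Across members, Spearman's rho of coding length with the log2 distance from the shNC mean was 0.59 in replicate 2, -0.11 in replicate 1 and 0.27 in replicate 3. For the other protein-coding genes it was 0.40, -0.06 and 0.09. These correlations are across genes of 1 library, which are not independent, and are given as a description.

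At equal coding length the members still lay below other genes in replicate 2. For coding sequences of up to 300 bases the median was -1.21 in 22 members and -0.57 in 184 other genes. Between 300 and 450 bases it was -1.01 in 21 members and -0.41 in others. Between 450 and 600 bases it was -0.82 in 15 members and -0.35 in others. Above 1500 bases, where only 4 members lie, it was -0.36 against 0.15. In replicate 3 the same classes gave -0.24 against -0.09, -0.22 against -0.05, -0.24 against -0.03 and -0.10 against 0.03. In replicate 1 they gave 0.00 against -0.01, -0.04 against 0.04, -0.09 against 0.03 and -0.07 against -0.02. Whether length, RNA quality or the high mitochondrial share of replicate 2 had a part in these values was not tested.

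**Figure D4:**
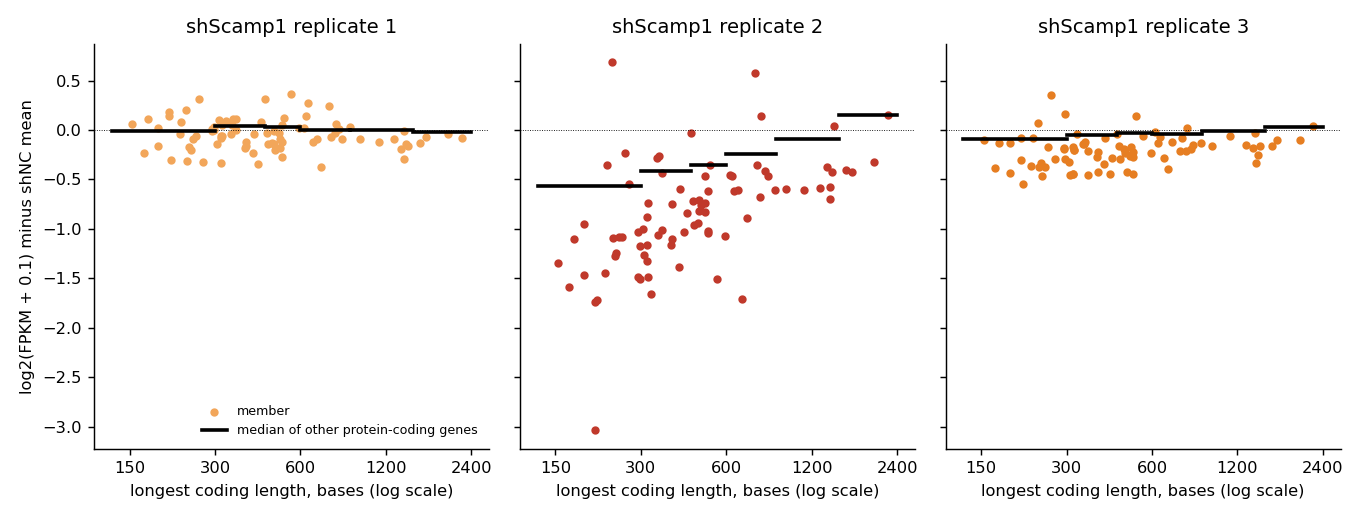
Log2(FPKM + 0.1) minus the shNC mean (y axis) against the longest coding length in bases (x axis, log scale) for the 83 tested members in each shScamp1 library. Black segments are medians of the other protein-coding genes within 6 length classes, the last one open above 1500 bases. In replicate 2 most members lie below the segments, and in replicate 1 they scatter about a median of -0.06.

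A further fit removed each library's trend with coding length from the 11510 protein-coding genes outside mitochondrial DNA. In it 15 members were lower (18.1%), against 13.4% of those genes, and 1, COX6B2, was higher (0.39, adjusted p = 0.0182), against 16.9%. The median log2 fold change of the members was -0.23. By complex it was -0.23 for I, -0.17 for II, -0.22 for III, -0.28 for IV and -0.21 for V. NDUFB10 (-0.32, adjusted p = 0.00607), NDUFV1 (-0.39, adjusted p = 0.0114), CYCS (-0.34, adjusted p = 0.00320) and ATP5MC3 (-0.44, adjusted p = 0.00354) were among the 15. Of the 20 members lower without shScamp1 replicate 2, 13 were also called in this fit. With the trend removed, the members' medians were -0.07, -0.43 and -0.15 in shScamp1 replicates 1, 2 and 3.

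Promoter motifs were found in called and uncalled members. Among the 17 matched members called without replicate 2, in either direction, 4 held NRF1 letters, 5 held ETS letters and 8 held Sp1 letters. Among the 49 matched members not called, 10, 15 and 33 did. COX5B, lower in that fit, and COX6A1, with a fold change of 0.02, both held all 3 motifs.

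Genes that build or govern the chain were counted in the same fits. The shares of all genes called lower are those given above, 5.17% with all libraries and 13.2% without shScamp1 replicate 2, and 14.7% were higher without it. Of 50 assembly factors tested, 2 were lower with all libraries (4.0%), and the median was -0.28. Without shScamp1 replicate 2, 7 were lower (14.0%) and 1 higher (2.00%), and the median was -0.14. LYRM7, a complex III assembly factor, was at 4.28, 4.18 and 3.60 FPKM in shNC and at 2.78, 2.79 and 2.80 FPKM in shScamp1 (log2 fold change -0.51, adjusted p = 0.0167, and -0.51 without replicate 2, limma). ECSIT, which acts in complex I assembly, had a log2 fold change of -0.28 (adjusted p = 0.0465), and of -0.24 (adjusted p = 0.0166) without replicate 2. Of 18 genes of pyruvate dehydrogenase and the TCA cycle, 3 were lower with all libraries (16.7%), with a median of -0.13. They were PDHA1 (-0.36, adjusted p = 0.0210), FH (-0.26, adjusted p = 0.0407) and SUCLG2 (-0.25, adjusted p = 0.0446). Without replicate 2, 5 genes of that list were lower (27.8%) and 1 was higher (5.56%), the median was -0.08, and the same 3 genes were called at -0.33, -0.23 and -0.25 (adjusted p from 0.00854 to 0.0168, limma). For PDHA1 the shScamp1 values of 22.9, 20.8 and 20.6 FPKM lay close together, below 27.3, 26.7 and 28.2 FPKM in shNC.

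Of 17 regulators tested, 2 were lower with all libraries (11.8%), and 6 were lower (35.3%) and 1 higher (5.88%) without replicate 2. The median went from -0.21 to -0.16. PPARGC1B, a coactivator of mitochondrial gene expression, was at 2.45, 2.51 and 2.46 FPKM in shNC and at 1.16, 1.73 and 1.13 FPKM in shScamp1 (log2 fold change -0.86, adjusted p = 0.0237, and -1.05, adjusted p = 0.00135, without replicate 2). TWNK, the mitochondrial DNA helicase, had a log2 fold change of -0.39 (adjusted p = 0.0157, limma), and of -0.36 (adjusted p = 0.00696) without replicate 2. The related PPARGC1A stayed under the filter, at no more than 0.175 FPKM. NRF1 was at 0.06 (adjusted p = 0.819, and 0.01 with 0.985 without replicate 2) and GABPA at -0.25 (adjusted p = 0.0901, and -0.27 with 0.0434 without replicate 2).

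Of the 13 subunits encoded in mitochondrial DNA, 12 were higher in shScamp1 replicate 2 than in any other library, while MT-ND3 was lowest there. Their summed level was 60222, 58657 and 61013 FPKM in shNC and 57922, 80796 and 54928 FPKM in shScamp1, all shScamp1 values but that of replicate 2 lying below the shNC range. MT-ND3, a complex I subunit, was at 3722, 3664 and 3985 FPKM in shNC and at 3945, 3088 and 3235 FPKM in shScamp1. None of the 13 was called by limma with all libraries or without shScamp1 replicate 2, and none by limma voom. None had an unadjusted p under 0.05 with all libraries. Those fits compared shScamp1 with shNC, and whether shScamp1 replicate 2 differed from the other libraries was not tested.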

How the data were processed

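Total RNA of shNC and shScamp1 NCI-N87 cells (3 libraries each) was sequenced. According to the submitters' processing notes, HISAT2 2.0.5, featureCounts 1.5.0-p3, DESeq2 1.20.0 and the build hg38 were used. The authors deposited FPKM values per gene with a gene length, which for 92 of 92 members equals the union of annotated exons (GENCODE 29), so genes with long rare exons read low. Whole reads were recovered from the FPKM steps (100% of values within 0.1 of a whole number), and only those reads entered limma voom. The members and gene lists were chosen with earlier results of these data known.

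Genes averaging 0.5 FPKM or more were tested on log2(FPKM + 0.1) with limma 3.58.1 (R 4.3.3, two-sided, trended prior, Benjamini-Hochberg adjustment over all 15556 genes tested). Members named by rule were the called, the most abundant and the least changed of each complex, the complex II genes, CYC1, CYCS, isoform pairs, members under the filter and called genes of the other lists. NDUFA1, NDUFB4, NDUFB6, NDUFB8, NDUFB11, NDUFA6, NDUFV2, UQCRC2, UQCRQ, UQCRHL, UQCRFS1, COX5B, COX6C, COX7C, ATP5ME, ATP5IF1, PPARGC1A, NRF1, GABPA and MT-ND3 were named after their values were seen. In the coding-length fit, a loess trend (span 0.3) on the longest coding sequence was removed per library. Promoters came from RefSeq. No member or list was tested as a set. Reads are not independent molecules, so limits cover counting error only. Other pseudocounts, filters, scalings, length or GC corrections, limma voom, a replicate block and leaving out each library were the alternatives. The model was tested on simulated data.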

Additional observations from a re-analysis of the deposited data

How the results depend on the processing

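Signs and sides of the threshold for the medians, for SCAMP1 and for the count of 0 differentially expressed members were kept under the 19 alternatives. Against 2 members lower, there were 0 with no filter, 0 with no mean-variance trend, 4 scaled to total reads, 5 scaled to reads outside mitochondrial DNA, 5 by limma voom, 5 among protein-coding genes only, 5 with the gene-length trend removed, and, in fits chosen after seeing the data, 15 with the coding-length trend removed and 6 with the GC trend removed. Leaving out 1 library gave 0 to 20 members lower (20 without shScamp1 replicate 2, 4 without shScamp1 replicate 1, 0 without any other 1), 0 to 1 higher and 808 to 4330 genes called. The highest count of each came without shScamp1 replicate 2. The member median ran from -0.53 to -0.12, the SCAMP1 log2 fold change from -2.90 to -2.65. Scaled to total reads, which shifts all genes by about the same amount, the member median with all libraries was -0.45. With the coding-length trend removed 1 member was higher and 3485 genes were called. With the replicate block, 0 members were lower and 958 genes were called (limma, NDUFB10 adjusted p = 0.0873, NDUFV1 adjusted p = 0.0838). Same-numbered libraries correlated at -0.04, 0.03 and 0.07 in their deviations from the group means. Whether they were grown or prepared together is not stated, and these values cannot decide it. Among the members named by rule, signs turned without shScamp1 replicate 2 for COX6A1 (leaving out 1 library gave -0.848 to 0.0246), COX8A (-0.914 to 0.0507) and NDUFS4 (-0.115 to 0.135). Some members outside that rule turned as well, such as NDUFB8 (-0.402 with all libraries and 0.150 without shScamp1 replicate 2). Of the members named by rule, NDUFS4 also turned with the gene-length (0.0764) or coding-length (0.0992) trend removed, and ATP5S with the gene-length trend removed (-0.0184). The cause was not tested. Depth limits the scarce isoforms and other members with few reads, such as NDUFA7 and NDUFV2. For the rest, the limit is the spread of 3 libraries.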
